A study of Homo sapiens with 13 samples.

Results

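The regions described here are strong distal ATAC-seq peaks whose mean signal differed little between G1 and M-phase in T98G cells. They are peaks of the deposited hg19 table that lie more than 2 kb from every annotated transcription start site (TSS), have a mean of at least 60 scaled reads over the 6 libraries, and have an absolute log2 ratio of M-phase to G1 means, each with 8 added, below 0.3. Of 129347 peaks, 96278 were distal, 4910 of these were strong, and 1696 of the strong distal peaks met all criteria. These 1696 preserved peaks made up 34.5% of the strong distal peaks, 1.76% of the distal peaks and 1.31% of all peaks. The other strong distal peaks were 1665 that were lower and 1549 that were higher in M-phase. The preserved peaks were chosen by the scaled reads of all 6 libraries, so their levels and their M-phase to G1 ratios are given as a description and carry no test.

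T98G is an established human glioblastoma cell line. The G1 libraries, 3 in number, came from cells deprived of serum for 72 h. The 3 M-phase replicates came from cells starved for 48 h, released for 36 h into medium with serum and nocodazole, which depolymerizes microtubules and arrests cells in mitosis, and collected by shaking. Each M-phase replicate was sequenced on a HiSeq and a NextSeq and the G1 libraries on a HiSeq only, so that the phase cannot be told apart from serum release, nocodazole or the sequencing platform. No label says whether replicates were separate cultures, and the spread between them may be technical.

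Distal accessible sites include enhancers and insulators, where transcription factors displace or compete with nucleosomes and regulate genes at a distance. ATAC-seq reads such sites through the Tn5 transposase, which inserts adapters preferentially into DNA that is not wrapped in nucleosomes. During mitosis chromosomes condense, transcription falls and many factors leave the chromatin, yet part of the accessible landscape persists, and sites that stay open are discussed as carriers of regulatory memory into the daughter cells.

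Stretches of 120 bases from preserved peaks are shown first, for 4 of the motifs whose shares are compared below. For each motif the stretch comes from the central 200 bp of the strongest preserved peak that holds it and in which at least 90% of the 31-base words (31-mers) occur once in the genome. All coordinates are hg19 (GRCh37), the sequence is that of the reference genome, and capitals mark the motif match on either strand.
AP-1 match, nearest gene EDN2, chr1:41898411-41898530, plus strand: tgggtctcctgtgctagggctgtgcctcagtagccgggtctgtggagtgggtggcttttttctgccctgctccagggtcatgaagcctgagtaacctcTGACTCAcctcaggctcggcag
TEAD match, nearest gene CCL20, chr2:228683173-228683292, plus strand: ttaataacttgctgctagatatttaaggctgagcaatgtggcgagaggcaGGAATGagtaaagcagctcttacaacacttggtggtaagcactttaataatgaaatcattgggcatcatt
RUNX match, nearest gene LDHA, chr11:18405322-18405441, plus strand: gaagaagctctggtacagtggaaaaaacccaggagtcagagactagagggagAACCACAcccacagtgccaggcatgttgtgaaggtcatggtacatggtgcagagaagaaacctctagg
CTCF match, exon of TBC1D24, chr16:2551319-2551438, plus strand: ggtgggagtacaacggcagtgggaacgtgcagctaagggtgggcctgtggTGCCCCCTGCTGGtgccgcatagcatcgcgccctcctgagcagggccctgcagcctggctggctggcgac
The AP-1 motif was searched as TGACTCA, whose reverse complement is TGAGTCA, and binds the FOS and JUN proteins. The TEAD motif was searched as GGAATG, the site of the factors that recruit YAP. A further stretch stands for the preserved peaks that lie in repeated sequence. It is shared letter for letter by the preserved peaks with the second and the third highest mean, both on chromosome 15, and carries no marked motif.
Shared stretch, chr15:21312941-21313060 and chr15:20305759-20305878, plus strand: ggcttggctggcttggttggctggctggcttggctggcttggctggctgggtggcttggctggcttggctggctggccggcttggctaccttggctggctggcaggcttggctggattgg
The longest stretch that these peaks share has 1757 bp, and 71.7% of the 31-mers of the first occur in the second.

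The G1 libraries had from 4191845 to 5092426 scaled reads in peaks, and the M-phase libraries from 5475345 to 6000423. The depth in unscaled reads is not given by the table, but the smallest value above 0 ranged from 0.8 to 1 across the G1 libraries and from 0.4 to 0.5 across the M-phase libraries, so that a scaled read stood for more sequenced reads in M-phase. No 2 libraries held identical values. Of 10 glioma and mesenchymal marker genes, 7 had a peak over a TSS, and 6 of these, VIM, CD44, FN1, TNC, S100A6 and OLIG2, had a G1 mean of at least 60. GFAP, NES and S100B had none. None of PTPRC, CD3E and ALB, which mark blood and liver, had such a peak, whereas 2 of 3 epithelial markers did, EPCAM with a G1 mean of 91.6 and KRT8 with 96.3.

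The preserved peaks had a median mean of 84.1 scaled reads, with quartiles of 69.8 and 117 and a highest mean of 1337. Their median level was 79.5, 82 and 97 in G1 replicates 1, 2 and 3 and 83.6, 85.3 and 89.5 in M-phase replicates 1, 2 and 3. G1 replicate 3 was thus the highest of all libraries for these peaks, and the remaining G1 libraries were below every M-phase library. The M-phase mean was above the G1 mean at 835 preserved peaks and below it at 861. In the peaks lower in M-phase, the library medians ran from 95.3 to 134 in G1 and from 57.3 to 59.2 in M-phase. In the peaks higher in M-phase they ran from 71.1 to 85 in G1 and from 123 to 139 in M-phase.

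**Figure D1:**
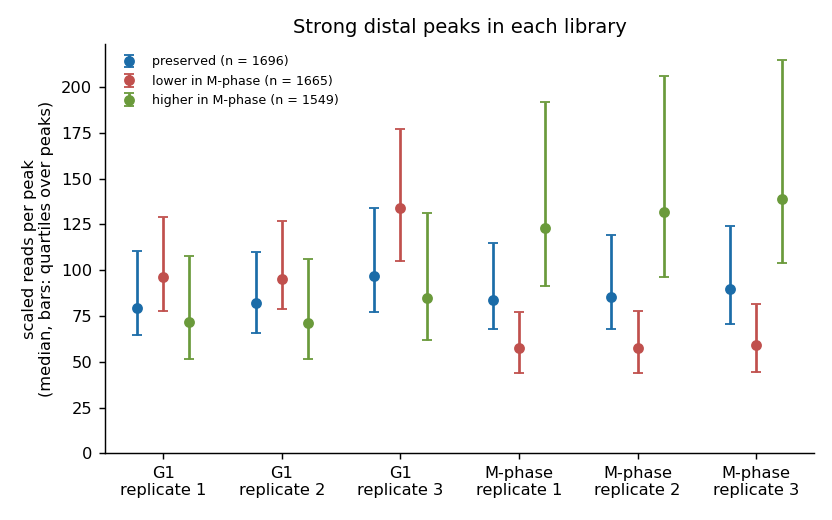
Median scaled reads per peak in each of the 6 libraries, with bars for the quartiles over peaks, for the 1696 preserved peaks and for the strong distal peaks that were lower (1665) or higher (1549) in M-phase. The medians of the preserved peaks lie between 79.5 and 97 in every library, and G1 replicate 3 is the highest of them.

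Scaled reads are not shares of a library. The preserved peaks took 3.85%, 4.02% and 3.91% of the reads in peaks in G1 replicates 1, 2 and 3 but 3.14%, 3.04% and 3.09% in M-phase replicates 1, 2 and 3, because the totals in peaks were larger in M-phase. When every library was scaled to an equal total in peaks, the median log2 change of all peaks tested moved from 0.02 to -0.24 and that of the preserved peaks from 0.01 to -0.32, and the rule then chose 1436 peaks, of which 769 were among the 1696 (45.3% of the 1696 and 53.6% of the 1436). With that scaling limma called 345 of the original 1696 lower and 0 higher at an adjusted p below 0.05. Which peaks count as preserved therefore depends on the reference to which the libraries are scaled, and every M-phase to G1 ratio given here refers to the deposited scaling.

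**Figure D2:**
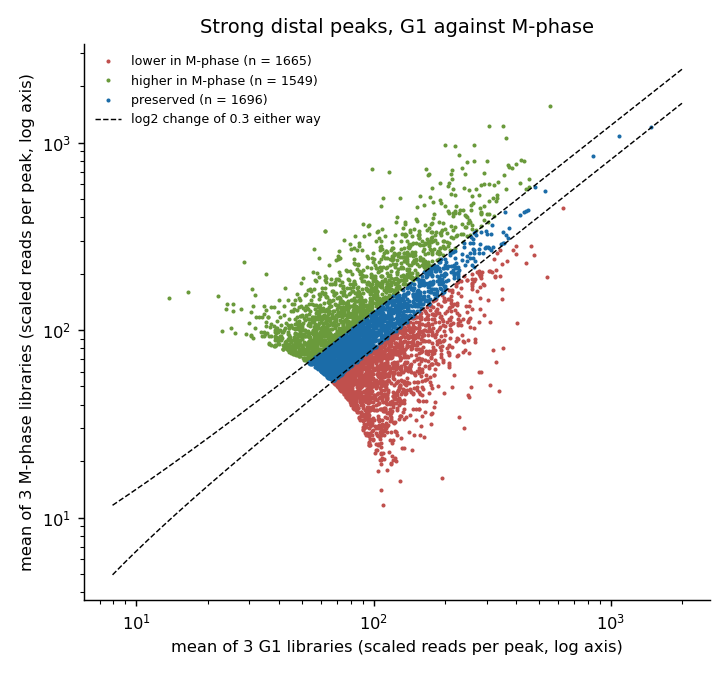
Mean of the 3 M-phase libraries against the mean of the 3 G1 libraries for the 4910 strong distal peaks, both in scaled reads on log axes. Dashed lines mark a log2 change of 0.3 in either direction with 8 added to each mean, and the 1696 preserved peaks fill the band between them by construction.

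All 1696 preserved peaks passed the filter on low values. At an adjusted p below 0.05 in limma, 14.3% of the 73121 peaks tested were higher and 13.1% were lower in M-phase, whereas 0 preserved peaks were called in either direction and 1 had an unadjusted p below 0.05, as the rule makes likely. A missing call does not bound a change. The 95% interval of the log2 change from limma reached a median of 0.44 to either side at the preserved peaks, against 0.56 over all peaks tested. It lay wholly within a 1.5-fold change (0.58 on the log2 scale) at 898 preserved peaks (52.9%), beside 7.71% of all peaks tested. The rule used the same values, keeps the estimates near 0 and takes strong peaks, so nothing is read from this difference. For the remaining preserved peaks a change of 1.5-fold stayed inside the interval. The libraries of the phases did not overlap at 98 preserved peaks, with all M-phase libraries above all G1 libraries at 57 and below them at 41, which is 5.78% beside 38.3% of all peaks tested, again a share that the rule lowers.

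The preserved peaks were chosen with every replicate, so no replicate is left that could check them. The rule was therefore also applied with a replicate of each phase left out, which gave other sets of peaks. When the rule was applied to replicates 2 and 3 of each phase, it chose 1640 peaks, of which 56.4% had a log2 change within 0.3 in replicate 1. The corresponding shares were 48.9% of 1716 peaks in replicate 2 and 47.8% of 1580 peaks in replicate 3. Their mean of 51% compares with 31.5% of all strong distal peaks and 21.8% of those that were not chosen. These shares describe the sets chosen without a replicate and carry no test of the preserved peaks. The median log2 change of the chosen peaks in the left-out replicate was 0.08 and 0.12 for replicates 1 and 2 and -0.16 for replicate 3, the number of the high G1 library.

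Single libraries of the same phase also differed. Between pairs of G1 libraries, a median of 46% of the preserved peaks were within 0.3 of each other on the log2 scale, with a range from 41.2% to 61.4% over 3 pairs. Between pairs of M-phase libraries the median was 67.2%, with a range from 62.7% to 70.3%. Between a G1 and an M-phase library the median was 60.4% over 9 pairs, and it ranged from 53.8% to 66.6%. The rule keeps the phase means within 0.3 of each other, which raises this last share. In the lower and the higher peaks, which the rule excludes, it was 19.3% and 12.3%. Nothing is therefore read from the share between phases beside those within a phase. The median SD of log2(scaled reads + 8) at the preserved peaks was 0.26 in G1 and 0.18 in M-phase (n = 3 each). The wider spread thus lay in the G1 libraries, which have fewer sequenced reads behind a scaled read and include the high replicate 3. The part of depth or of that library in the spread was not tested.

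At the limits of the rule, the peaks on either side had nearly the same values. Just below the upper limit lay a peak nearest to DEPDC5, with 54.7, 56.3 and 62 scaled reads in G1 and 62.6, 81.2 and 74.6 in M-phase, and just above it a peak nearest to HPCAL1, with 73.6, 75.8 and 89 in G1 and 92.7, 98.1 and 108 in M-phase. Both had a log2 change of 0.30. At the lower limit of -0.30, a peak nearest to NR2F2 was inside with 192, 166 and 238 in G1 and 185, 141 and 154 in M-phase, and a peak nearest to C7orf25 was outside with 86.5, 66.4 and 133 in G1 and 87.3, 72.1 and 68.3 in M-phase. The peaks just under the minimum mean were nearest to SEMA4F, SLC25A40 and ABCA13, with means of 59.92, 59.88 and 59.87, and those just inside it to ZFP36L1, whose mean was 60, IRX5 and DAP.

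The strongest preserved peaks lay largely in repeated sequence. The highest mean, 1337, belonged to chr17:41399754-41401176, an intergenic peak nearest to TMEM106A, with 1330.2, 1744 and 1338 scaled reads in G1 and 1105, 1164 and 1339 in M-phase. All of its M-phase libraries but replicate 3 were below every G1 library, and 79.6% of its 31-mers were single-copy. The next, on chromosome 15, are the pair with the shared stretch printed above. At chr15:21312884-21317547 the values were 998, 1323 and 924 in G1 and 1018, 1125 and 1111 in M-phase, and only 4.57% of the 31-mers were single-copy. At chr15:20305759-20309229 they were 807, 967 and 751 in G1 and 813, 862 and 882 in M-phase, with 3.81% single-copy. G1 replicate 2 was the highest library at both, and the phases overlapped. Mapping kept reads with up to 3 locations at 1 of them, so the levels of such copies cannot be assigned to a single locus. Peaks at chr21:11143639-11146762 near TPTE (7.18% single-copy) and at chr2:87641272-87646244 near PLGLB1 (18.3%) were also among the 6 strongest.

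Among the 6 strongest, RIN2 was the sole gene near a peak of single-copy sequence. Its peak at chr20:19954671-19958178 covers an exon of RIN2, which encodes an activator of the endosomal GTPase RAB5, and had 435, 406 and 592 scaled reads in G1 and 585, 522 and 624 in M-phase. The phases overlapped through G1 replicate 3. The limma log2 change was 0.28 with a 95% interval from -0.04 to 0.60, which reaches beyond 1.5-fold.

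The strongest preserved peaks with at least 90% single-copy 31-mers, a set taken after the repeated peaks had been seen, lay near genes of varied function. At chr16:85556824-85559272, in an intron of GSE1, the values were 428, 394 and 420 in G1 and 407, 407 and 422 in M-phase. This peak also had one of the 6 smallest SDs over the 6 libraries, and its interval ran from -0.33 to 0.32. At chr11:18404414-18406270, near LDHA, which encodes a lactate dehydrogenase subunit, the values were 331, 313 and 421 in G1 and 255, 278 and 337 in M-phase, with an interval from -0.63 to 0.06. The groups overlapped at LDHA through M-phase replicate 3. At chr5:135354949-135356957, near TGFBI, an extracellular matrix protein induced by TGF-beta, they were 271, 248 and 332 in G1 and 330.4, 328 and 344 in M-phase. Others of this set were nearest to TRIP13, a mitotic checkpoint ATPase, to RPS23, a ribosomal protein gene, and to GLDC, of the glycine cleavage system, with limma log2 changes of 0.05, -0.25 and 0.15.

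The least variable preserved peaks were of very different strength. At chr11:68776278-68776923, in an intron of MRGPRF, an orphan receptor gene, the values were 65.6, 65.6 and 66 in G1 and 65.5, 63 and 64 in M-phase. At chr11:1403277-1404749, near the kinase gene BRSK2, they were 147, 144 and 147 in G1 and 154, 150.0 and 152 in M-phase, so that the phases did not overlap although they differed by 0.05 on the log2 scale. At chr2:179960913-179962391, near SESTD1, they were 104, 111 and 110 in G1 and 112, 112 and 109.7 in M-phase. Peaks near PPIAL4G and ZNF595 completed the 6 and had 35.3% and 64.3% single-copy 31-mers.

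Preserved peaks were wide and rich in G and C compared with the peaks that were lower in M-phase. The median width was 1078 bp for preserved peaks, 901 bp for those lower and 1136 bp for those higher in M-phase, whereas all distal peaks had a median of 221 bp. Reads were counted over the whole peak, so the minimum mean favours wide peaks in every strong class. Nothing is therefore read from the width of all distal peaks. The GC and motif shares of all distal peaks, here and below, are likewise those of mostly weaker peaks. A width of at least 1000 bp was found in 57.7% of the preserved peaks (exact 95% binomial interval 55.3 to 60.1), in 39.2% (36.8 to 41.6) of the lower and in 61.4% (58.9 to 63.8) of the higher peaks. The median GC content was 51.2%, 48.9% and 50.7% in the same order. A GC content of at least 50% was found in 55.8% (53.4 to 58.2) of the preserved, 44.6% (42.2 to 47.1) of the lower and 52.7% (50.2 to 55.2) of the higher peaks, and in 45.3% of all distal peaks. The preserved peaks thus resembled the higher more than the lower peaks in both respects, and the intervals of the preserved and the higher peaks overlapped. Regions are not replicates, neighbouring peaks share a locus, and these intervals cover counting error only.

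Seen the other way, the share of strong distal peaks that were preserved was 28.7% (24 to 33.7) below 40% GC and 41.5% (37.9 to 45.1) at 60% GC and above. In the most GC-rich bin, 275 of the 757 peaks were higher and 168 lower in M-phase, and in the bin below 40% GC 83 of 352 were higher and 168 lower. By width, the share was 30.8% between 500 and 1000 bp and 38% between 1000 and 1500 bp. CpG dinucleotides were not dense in most preserved peaks: an observed over expected CpG ratio above 0.6 was found in 7.96% (6.72 to 9.35), between 3.9% of the lower and 12.9% of the higher peaks. The widest preserved peaks, of 8530 and 7596 bp, covered exons of MUC19 and HRNR, and only 65.1% and 29% of their 31-mers were single-copy. The GC content ran from 33% in an intron of RASAL2 to 77.3% near DUSP8.

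**Figure D3:**
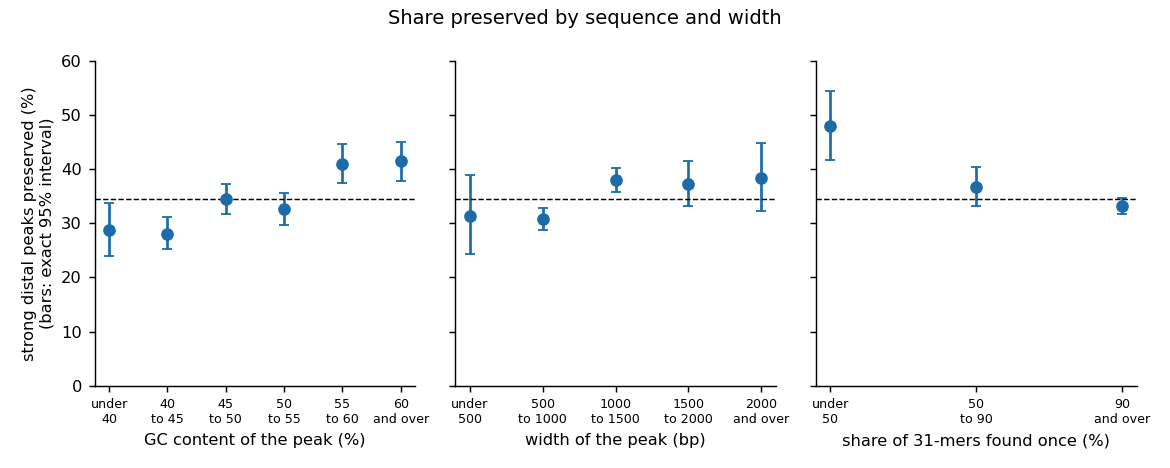
Share of strong distal peaks that were preserved, by GC content, by width and by the share of 31-mers that occur once in the genome, with exact 95% binomial intervals. The dashed line is the share over all strong distal peaks, 34.5%. The share rises from 28.7% to 41.5% with GC content and is 48% where under 50% of 31-mers are single-copy.

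Repeated sequence was more frequent in the preserved peaks. Under 50% of the 31-mers were single-copy in 123 preserved peaks, or 7.25% (6.06 to 8.59), against 4.62% (3.67 to 5.75) of the lower and 3.62% (2.74 to 4.67) of the higher peaks. Of the 256 strong distal peaks with such sequence, 48% were preserved, and of the 3903 with at least 90% single-copy 31-mers, 33.2%. The GC share did not rest on these, since 56.1% of the 1297 single-copy preserved peaks had a GC content of at least 50%. No preserved peak held a 31-mer of the mitochondrial genome.

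By position, 50.8% of the preserved peaks were intronic, 45.3% intergenic and 3.89% exonic. The intronic share was 56% in the lower and 55.9% in the higher peaks. The median distance to the nearest TSS was 11566 bp for preserved peaks, between 9533 bp for the higher and 14156 bp for the lower peaks. Chromosome 7 held 231 preserved peaks, 44.6% of its strong distal peaks, chromosome 20 held 125 (45%), and chromosome 19 held 25 (20.7%). A stretch of chromosome 7 from 80 to 95 Mb, picked after the counts had been seen, held 70 of these, beside 40 lower and 10 higher peaks. It also had 179.7 peaks of any kind per Mb, where the median over Mb with a peak was 39, and the number of copies of this stretch in T98G was not tested.

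In the share with a neighbour within 50 kb the preserved peaks lay between the lower and the higher peaks. Their nearest strong distal peak was preserved more often than that of the other classes. Among single-copy preserved peaks, however, this second share was that of strong distal peaks in general. Another strong distal peak lay within 50 kb of 45.9% (43.5 to 48.3) of them, compared with 39.7% (37.3 to 42.1) of the lower and 48.8% (46.3 to 51.3) of the higher peaks. The nearest strong distal peak was itself preserved for 38.7% (36.4 to 41.1) of the preserved peaks, for 34% (31.7 to 36.3) of the lower and for 30.3% (28 to 32.6) of the higher ones, where 34.5% of all strong distal peaks were preserved. Among single-copy preserved peaks this share was 34.5% (32 to 37.2). The other classes kept more to themselves, as 46.8% of the lower peaks were nearest to a lower and 51.3% of the higher peaks nearest to a higher peak. When strong distal peaks under 50 kb apart were joined into runs, 918 preserved peaks stood alone, and of 281 runs with at least 3 peaks, 13 held only preserved peaks and 57 held all 3 classes.

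The runs with most preserved peaks differed in their sequence. The largest, at chr21:11021034-11165267 next to TPTE, a testis-expressed phosphatase homologue, had 12 preserved, 2 lower and 3 higher peaks and a median of 43% single-copy 31-mers. A run at chr5:628535-808683, over CEP72, TPPP and ZDHHC11B, had 7 preserved and 3 lower peaks and a median of 44.1%. The third, at chr5:139016850-139168375, had 7 preserved peaks and 1 higher peak, nearest to CXXC5, a CXXC zinc finger gene, and to PSD2, and every 31-mer of its peaks was single-copy. Its first peak, chr5:139016850-139018224, had 239, 233 and 248 scaled reads in G1 and 271, 326 and 276 in M-phase, and here every M-phase library was above every G1 library. A peak near the centre, at chr5:139088327-139089877, had 208, 234 and 237 in G1 and 193, 206 and 196 in M-phase, the opposite order. The peak classed as higher had 191, 226 and 214 in G1 and 252, 264 and 282 in M-phase, a log2 change of 0.33 that is just over the limit. Preserved peaks of this run thus leaned in both directions within the limit.

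**Figure D4:**
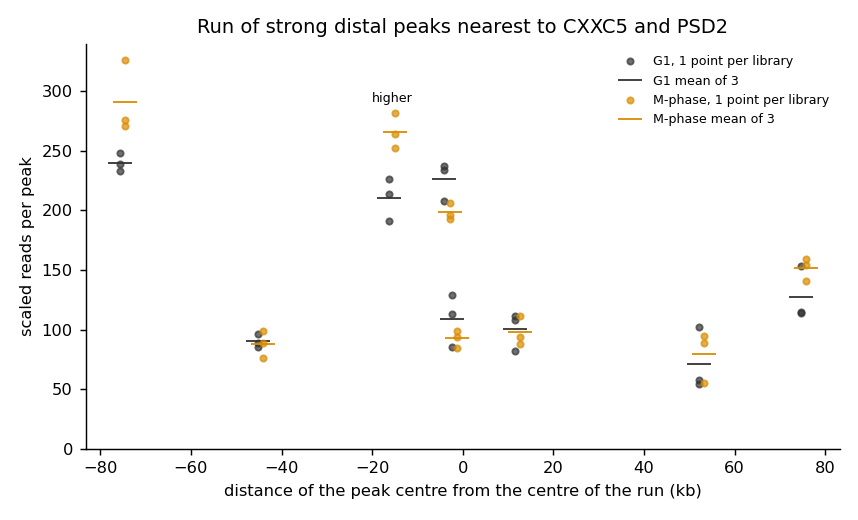
Scaled reads in each library at the 8 strong distal peaks of the run nearest to CXXC5 and PSD2, against the distance of each peak from the centre of the run in kb. Points are libraries, dashes are means of 3, and the peak above the limit is marked. The means of the phases lie close together at the other 7 peaks.

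Preserved peaks were spread over many genes. They had 1292 different nearest protein-coding genes, of which 1046 were nearest to 1 preserved peak and 83 to at least 3. Of 439 genes with at least 3 strong distal peaks, 20 had only preserved ones, 106 had all 3 classes and 111 had none preserved. The genes with most preserved peaks were TPTE with 15, GOLGA6L6 with 11, DEFB115, GRM3 and RP11-685N3.1 with 7, and MTERF1, PPIAL4G, SPRY3 and STEAP1 with 6, followed by AC010760.1 with 5, first in the alphabet of those with 5. Apart from GRM3 and STEAP1, at 95.6% and 98.3%, their strong distal peaks had a median of under 90% single-copy 31-mers.

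GRM3 encodes a metabotropic glutamate receptor, and STEAP1 a membrane protein of the metalloreductase family. All 7 strong distal peaks nearest to GRM3 and all 6 nearest to STEAP1 were preserved, and all lie in the stretch of chromosome 7 described above. The strongest at GRM3, chr7:85600865-85602411, had 108, 96.1 and 110 scaled reads in G1 and 115, 91.9 and 114 in M-phase. Its distance to the TSS of GRM3 was 670814 bp, so that nearest means no more than the closest start on the chromosome. The strongest at STEAP1, chr7:89389764-89391214, had 125, 109 and 87 in G1 and 105, 101 and 167 in M-phase, where M-phase replicate 3 was highest and the others lay within the G1 range. With single-copy peaks alone, CXXC5 and SEMA3A had 5 preserved peaks each and BRD1, EBF1, EGFR and GSE1 were among the genes with 4.

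Of 7 gene lists, the growth factor list had the highest share of preserved peaks. Strong distal peaks nearest to genes of TGF-beta and growth factor signalling numbered 48, of which 20 were preserved (41.7%), 5 lower and 23 higher, at a median log2 change of 0.25. For extracellular matrix and adhesion 13 of 49 were preserved (26.5%), for AP-1, TEAD and their targets 8 of 29 (27.6%), for glial and neural identity 7 of 21 (33.3%), for stress and inflammation 4 of 12 (33.3%), for the cell cycle 8 of 37 (21.6%) and for the actin cytoskeleton 3 of 21 (14.3%). Over all strong distal peaks the share was 34.5% and the median log2 change -0.02. These counts are small, and the lists are set apart from the other genes by no test.

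EGFR, the epidermal growth factor receptor, had 4 preserved and 2 higher peaks. Those preserved are all intronic and single-copy, and the strongest, chr7:55153844-55155063, had 119, 165 and 203 scaled reads in G1 and 136, 163 and 148 in M-phase. At chr7:55253712-55254271 the values were 104, 96.9 and 114 in G1 and 102, 102 and 178 in M-phase, so that the M-phase mean was raised by replicate 3. TGFB2, a ligand of the same list, had 3 preserved and 2 higher peaks. CDK6, a kinase that drives G1 progression, had 4 preserved, 5 lower and 7 higher peaks. Those preserved lie in the stretch of chromosome 7 described above, whose number of copies was not tested. The strongest preserved one, chr7:92438771-92439745 in an intron of CDK6, had 110.4, 87.5 and 139 in G1 and 126, 117 and 144 in M-phase. At GADD45B, a stress-induced gene, 2 were preserved and 2 higher.

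Genes of matrix and cytoskeleton also had preserved peaks beside changed ones. COL6A3, a collagen VI chain, had 3 preserved and 5 higher peaks, and the strongest preserved one, chr2:238130405-238132544, had 229.7, 149 and 214 scaled reads in G1 and 208, 216 and 218 in M-phase. COL5A1 had 2 preserved and 1 higher peak. PALLD, which encodes the actin-binding palladin, held all 3 preserved peaks of the actin list, with 1 lower and 1 higher peak beside them. CCN1, a matricellular target of YAP, had 2 preserved and 2 lower peaks. Its peak at chr1:86072547-86073716 had 219.7, 219.5 and 327 in G1 and 233, 276 and 263 in M-phase, inside the G1 range in every M-phase library.

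Regulators of the Hippo pathway, identity and stress had preserved peaks as well. The Hippo kinase gene LATS2 had 2 preserved peaks and none of the other classes. RUNX2, a mesenchymal transcription factor in the glial and neural list, had 3 preserved peaks, all intronic, and no other. SOX9, a regulator of glial and chondrocyte fate, had 3 preserved and 2 higher peaks. The preserved ones had G1 means of 66.8, 107 and 107 and M-phase means of 60.2, 119 and 113. At CCL2, a chemokine gene, 1 peak was preserved, with a mean of 138 ± 34 in G1 and 158 ± 24.6 in M-phase (SD, n = 3 each), and the peaks of KLF4 were 1 preserved and 1 lower.

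The sequence of the central 200 bp differed among the classes for several motifs. The table gives no summits, so the centre is the midpoint of the peak. The AP-1 site was found in 17.6% (15.8 to 19.5) of the preserved peaks, 19.5% (17.6 to 21.4) of the lower and 24.3% (22.2 to 26.6) of the higher peaks, against 9.71% of all distal peaks. Matches to the RUNX motif were in 12.3% (10.8 to 14) of the preserved and 17.7% (15.9 to 19.6) of the lower peaks, and those to the FOX motif of forkhead factors in 11.2% (9.74 to 12.8) and 17.5% (15.7 to 19.4). The higher peaks held them in 10% (8.56 to 11.6) for RUNX and 10.9% (9.4 to 12.6) for FOX. The corresponding shares of all distal peaks were 10% and 12.3%. The E-box CAGCTG, bound by basic helix-loop-helix factors, was in 15.5% (13.8 to 17.3) of the preserved, 19.7% (17.8 to 21.7) of the lower and 12.5% (10.9 to 14.3) of the higher peaks. Preserved peaks thus stood below the higher peaks for AP-1 and below the lower peaks for RUNX, FOX and the E-box, with intervals that did not overlap in this window. The classes also differ in GC content and in width, and a fixed window covers more of a narrow peak. The part of either in these shares was not tested. For RUNX, FOX and the E-box the intervals of the preserved and the higher peaks overlapped, so there the lower peaks stood apart. Over the whole peak the intervals of the preserved and the lower peaks overlapped for RUNX (44.4 to 49.2 against 47.7 to 52.6) and for the E-box, and did not for FOX (39.4 to 44.2 against 48.7 to 53.5). The whole-peak FOX share of the higher peaks, 50.5% (48 to 53), was also above that of the preserved peaks.

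In the central 200 bp, other motifs separated the preserved peaks less from the other classes. The TEAD site was in 16% (14.3 to 17.8) of the preserved, 17.2% of the lower and 13.4% of the higher peaks, and the CCAAT motif of NF-Y in 3.24% (2.45 to 4.2), 2.52% and 2.39%. For both, the interval of the preserved peaks overlapped those of the lower and the higher peaks, although for TEAD the lower (15.5 to 19.1) and the higher peaks (11.7 to 15.2) did not overlap each other. Over the whole peak the TEAD share was 56.5% (54.1 to 58.9) in the preserved, 50.8% (48.3 to 53.2) in the lower and 55.6% in the higher peaks. The site of CTCF, the insulator protein, was found in 9 preserved peaks, or 0.531% (0.243 to 1), in 5 lower and in 17 higher peaks, with 0.965% among all distal peaks. Over the whole peak the CTCF share was 3.18% in the preserved, 1.5% in the lower and 5.29% in the higher peaks, and that of AP-1 was 50.2%, 47.8% and 65.8%, but the classes differ in width. The SP/KLF site GGGGCGGGG was in 1.59% of the preserved, 1.5% of the lower and 2.97% of the higher peaks. Over the whole peak its share was 6.43% (5.31 to 7.7), 4.26% and 10.6% (9.1 to 12.2) in the same order. The whole-peak intervals of the preserved and the higher peaks did not overlap for CTCF, AP-1, SP/KLF, NRF1 or the B box named below, with the same limit of unequal width. For NRF1 the whole-peak shares were 0.943% (0.54 to 1.53) in the preserved and 2.39% (1.69 to 3.28) in the higher peaks. Within the central 200 bp, matches to the ETS, NRF1 and CEBP motifs were in 7, 6 and 41 preserved peaks, in 5, 2 and 67 lower and in 7, 17 and 42 higher peaks. A match to the B box of Pol III genes was in 1 preserved, 0 lower and 9 higher peaks. Over the whole peak the B box share was 0.354% (0.13 to 0.768) in the preserved, 0.24% in the lower and 2.97% (2.18 to 3.94) in the higher peaks. For the YY1, REST and NFI motifs 0 of 1696 matched in the central 200 bp, with an exact upper limit of 0.217%. These matches were rare everywhere, with 0.0135%, 0.0125% and 0.027% of all distal peaks. No lower peak and only 1 higher peak, for REST, matched in this window, so their absence there does not mark the preserved peaks. Over the whole peak NFI matched in 6 preserved, 2 lower and 3 higher peaks. YY1 matched in 1 preserved, 0 lower and 0 higher peaks, and REST in 0 preserved, 1 lower and 1 higher peak. These strings are fixed and strict, and a missing match says nothing about binding.

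**Figure D5:**
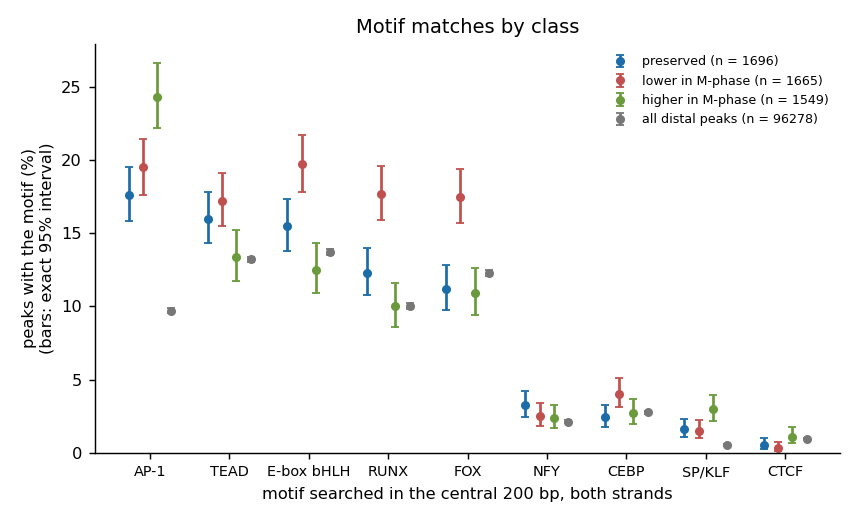
Share of peaks with a match to each of 9 motifs in the central 200 bp, with exact 95% binomial intervals, for the preserved, lower and higher strong distal peaks and for all 96278 distal peaks. For AP-1 the preserved peaks lie at 17.6% and the higher at 24.3%. For RUNX and FOX the preserved peaks lie at 12.3% and 11.2%, near the higher peaks at 10% and 10.9% and below the lower peaks at 17.7% and 17.5%.

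The peaks named for these motifs are the strongest that hold them, so their levels stand above those of most preserved peaks. The EDN2 peak with the AP-1 site printed above, chr1:41897767-41899096 near an endothelin gene, had 233, 271 and 363 scaled reads in G1 and 222, 247 and 306 in M-phase, and the strongest preserved AP-1 peak of any sequence, near TDRD3, had 309, 302 and 332 in G1 and 255, 256 and 291 in M-phase. At TDRD3 every M-phase library was below every G1 library. The CCL20 peak with the TEAD site, chr2:228682612-228683934, near a chemokine gene, had 197, 193 and 329 in G1 and 215, 266 and 353 in M-phase, and replicate 3 was highest in both phases. The TBC1D24 peak with the CTCF site, chr16:2550684-2552092, had 110.4, 154 and 118 in G1 and 120.3, 89 and 140.5 in M-phase, and the phases overlapped. The strongest preserved peak with an E-box was near TIMP2, a metalloproteinase inhibitor gene, with 242, 233 and 331 in G1 and 269, 335 and 391 in M-phase, and that with a CEBP match lay in an intron of MAP2K3, with 197, 319.5 and 168 in G1 and 152, 185 and 232 in M-phase.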

How the data were processed

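Members and lists were chosen with earlier results of these data known. According to the paper's methods, the authors trimmed reads with cutadapt, mapped them to hg19 with Rbowtie (up to 3 locations, 1 kept), removed mitochondrial reads and ran MACS2 in broad mode after merging replicates. Versions are not given in the sources used here. The deposited signal values are reads per peak, which the authors scaled to the library with fewest reads and rounded to 0.1. A deposited log2 column holds the authors' own comparison. It was not used, and its sign runs opposite to that of the named columns, which set all directions here. The chromatin fraction and input samples were not analysed here.

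The limma trend fit (limma 3.58.1, R 4.3.3) used log2(scaled reads + 8) of 3 G1 and 3 M-phase columns, without covariates, on the 73121 peaks with at least 10, in a library of median total, in 3 libraries and a total of at least 15, with Benjamini-Hochberg adjustment over these peaks. The fit was tested on simulated data. TSSs are those of GENCODE release 44 lifted to GRCh37, the build of hg19, and no peak ran past a chromosome end. Motifs, 31-mers and GC content were read from that genome with pysam 0.24.0, and exact binomial intervals come from scipy 1.17.1. A nearest gene is the protein-coding gene with the closest TSS. Named were the strongest and least variable 6 peaks, those at the limits of the rule and the extremes of width and GC, the 3 runs with most members, the 10 genes with most, the 2 genes with most in each list and the strongest peak per motif. Single-copy versions of these sets were added after seeing the data. Alternatives covered scaling, pseudocount, limits, TSS set, filter, replicates and motif window. Some items are not reported here.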

Additional observations from a re-analysis of the deposited data

How the results depend on the processing

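The number of preserved peaks was 3458 with a minimum mean of 40 and 599 with 100, and otherwise within 1.5 times 1696. Over the 6 fits that left out a replicate it ran from 1544 to 1724, and the peaks chosen without G1 replicate 3 held 1245 of the 1696. Intervals within 1.5-fold numbered 1505 and 369 at those minimum means and from 408 to 903 when a replicate was left out. They fell to 426, 408 and 532 without M-phase replicates 1, 2 and 3. The alternative scalings changed which peaks were called. With equal totals limma called 6347 of all peaks higher and 18113 lower, and 2 of the peaks then preserved, and with trended loess 1. The loess fit called 179 of the original 1696 lower and TMM 5, while the medians of all peaks tested were 0.03 and -0.08.

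The share within 0.3 in the left-out replicate was 37.4% with a limit of 0.2 and 62.8% with 0.4. GC of at least 50% was 58.3% at a minimum mean of 100 and 60.8% with protein-coding TSSs only. The share at least 1000 bp wide was 40.1% and 75.6% at minimum means of 40 and 100, 53.5% for single-copy members, and from 55.3% to 58.9% without a replicate. A neighbour within 50 kb was found for 55.7% and 35.9% at those means, 41.5% beyond 5 kb from a TSS, 52% with protein-coding TSSs, from 43.1% to 46.4% without a replicate, and 17.5% within 10 kb. The nearest was preserved in 35.7% with equal totals, 35.8% with a pseudocount of 1, 28.5% and 48.3% with limits of 0.2 and 0.4, 41.2% and 35.6% at means of 40 and 100, 34.5% for single-copy members and from 35.9% to 40.2% without a replicate, shares that follow the number chosen in part. The AP-1 share was 20.9% with equal totals, 15.7% with protein-coding TSSs and 50.2% over whole peaks, and the CTCF share 1.04% with equal totals, 1.13% at a mean of 40 and 3.18% over whole peaks. Except for construction (fewer samples or another limit), the cause was not tested.

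With the replicate number as a block, limma called 10881 peaks higher and 10063 lower and 0 preserved peaks (0 at an unadjusted p below 0.05). Deviations of same-numbered replicates correlated at 0.00594, -0.0101 and 0.0284, so the samples share only a number. The edgeR fit on recovered reads was not run, because too few values of M-phase replicates 1 and 2 came out as whole reads. Scaled values set by 3 libraries per phase limit how small a change can be bounded.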
